A study of Homo sapiens with 6 samples.

Results

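The genes described here are the cytosolic translation initiation and elongation factors of the SEM leukaemia cell line. They are the protein-coding genes whose symbols begin with EIF1 to EIF6 or with EEF1 or EEF2, with EIF1AY left out. The rule found 64 members among 20345 protein-coding genes and 57820 genes listed in all. The family was chosen because EIF3C was lower in the CTCF-dRBR libraries, so the values of EIF3C and of its near-identical copy EIF3CL are given as a description, with no test. The other members came in by their symbols alone. Of the 64 members, 61 reached 1 CPM, a count scaled to the size of its library, in at least 1 library and entered the fit. EEF1A2, EIF4E1B and EIF5A2 did not, and stayed at or below 0.334 CPM in every library.

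Translation begins when eIF2 carries the initiator tRNA and GTP to the small ribosomal subunit as the ternary complex, and eIF1, eIF1A and eIF5 help the subunit to select a start codon. The multi-subunit factor eIF3 holds the small subunit and links it to eIF4F, in which eIF4E binds the mRNA cap, eIF4G is the scaffold and eIF4A is the helicase. The guanine nucleotide exchange factor eIF2B recharges eIF2, and kinases that phosphorylate the alpha subunit of eIF2 block that step under stress. The factors eEF1A and eEF2 then deliver aminoacyl-tRNA and move the ribosome along the mRNA. In leukaemia cells, as in other dividing cells, many of these genes are highly expressed.

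Total RNA-seq addressed whether loss of the RNA-binding region (RBR) of the architectural protein CTCF alters gene expression. SEM is a B-cell acute lymphoblastic leukaemia (B-ALL) line. In all cells of both groups the endogenous CTCF carries a miniAID-mClover3 tag, and OsTIR1(F74G) is expressed constitutively, so that the ligand 5-Ph-IAA degrades the tagged protein. Per the methods, all cells received 5-Ph-IAA for 24 h, alone for the first 6 h and then together with doxycycline for 18 h, at 1 µg/mL, to induce an HA-tagged CTCF. The transgene encoded wild-type CTCF in the CTCF-WT group (3 libraries) and CTCF without the RBR in the CTCF-dRBR group (3 libraries, labelled CTCF_RBR). The genotype label of the CTCF-dRBR libraries names TRE3G-HA-CTCF-dRBR, whereas that of the CTCF-WT libraries names the tagged endogenous CTCF alone. Nothing in the labels says that libraries of a group came from separate cultures, so the p-values measure the spread between these libraries, which may be technical.

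The CTCF-WT libraries held 51732177 to 53166735 expected counts, and the CTCF-dRBR libraries held 30034505, 48912209 and 50457168 in the order of replicates 1, 2 and 3. CTCF-dRBR replicate 1 stood apart, with Spearman correlations of 0.913 to 0.968 to the other 5 libraries, which correlated with each other at 0.971 to 0.997. Across genes, the deviation of a library from the mean of all 6 correlated with GC content at rho = −0.79 in CTCF-dRBR replicate 1, −0.45 in replicate 2 and 0.51 in replicate 3, and at 0.33 to 0.72 in the CTCF-WT libraries. CTCF transcripts, endogenous and transgenic together, read 209.9, 211 and 249 CPM in CTCF-WT against 273, 264 and 252 CPM in CTCF-dRBR, which does not check the swap because the tag acts on the protein. Of 8 B-lineage markers, 7 reached 1 CPM, with a summed level of 883 to 1070 CPM in CTCF-WT against 609 to 1020 CPM in CTCF-dRBR. T or NK markers summed to at most 23.3 CPM, with NKG7 the highest, CD3D at 0 and 1 of 6 reaching 1 CPM. Myeloid markers summed to at most 13.2 CPM, with LYZ the highest, ELANE at 0 and 2 of 6 reaching 1 CPM. Erythroid and stromal markers summed to under 1 CPM. In bulk RNA, fewer cells of a kind and less RNA per cell cannot be told apart.

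Among the 59 tested members other than EIF3C and EIF3CL, log2 fold changes lay on both sides of 0 and 0 members passed the main test. The largest differences below 0 on the log2 scale belonged to EIF4EBP3 (−2.75), EIF5A (−1.23), EIF4EBP1 (−1.13), EIF5AL1 (−1.05), EIF6 (−1.03) and EIF1 (−0.65). Apart from the read-through gene EEF1E1-BLOC1S5, whose counts were too few to place, the largest differences above 0 belonged to EIF3E (0.62), EIF2AK3 (0.52) and EIF2A (0.51). The groups did not overlap in 23 members that were lower in CTCF-dRBR (39.0%) and in 8 that were higher (13.6%), beside 17.5% and 20.0% of all 14044 genes tested. EIF3C and EIF3CL, left out of these counts, were lower without overlap as well. The same shares of all genes, 17.5% lower and 20.0% higher, stand beside the counts per complex below. The log2 fold change was below 0 in 35 members and above 0 in 24, with a median of −0.17 over the members and −0.01 over all genes tested.

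No member passed a false discovery rate (FDR) of 0.05 in the limma-voom fit, in which 0.0% of all genes passed, and the members' adjusted p ran from 0.1015 to 0.988. At an unadjusted p under 0.05, 17 members were lower and 4 were higher, beside 12.8% and 12.6% of all genes. edgeR's quasi-likelihood test called 0 members as well, with 19 at an unadjusted p under 0.05, beside 24.6% of all genes. DESeq2 called 8 members lower and 3 higher at FDR < 0.05 (6.14% and 5.38% of all genes). The lower members were EIF1, EIF2B4, EIF3I, EIF4A1, EIF4EBP3, EIF4H, EIF5A and EIF5AL1, and the higher ones were EIF2AK3, EIF3E and EIF3L. With TPM rescaled to protein-coding genes in place of CPM, 26 members did not overlap (34.6% of all genes) and 14 of them were lower (10.6% of all genes), each with an exact permutation p of 0.1 (two-sided), the smallest that 3 against 3 libraries allow, and the median of the members was 0.01 beside 0.09 over all genes. In the TPM as deposited the median of all genes was 0.40 and that of the members 0.41, so that members such as EIF2B4, EIF2B5, EIF2S3L, EIF3B, EIF3G, EIF3I, EIF4A1, EIF4EBP2, EIF4ENIF1, EIF4G1 and EIF4H, below 0 in CPM, lay above 0 there. Relative to that shift EIF4A1, EIF4EBP2 and EIF4ENIF1 lay above it, and the others named lay below it. Several members overlap a gene on the opposite strand, among them EIF5A (GPS2), EIF4EBP3 (SRA1), EIF3B (SNX8), EIF3G (P2RY11), EIF3I (TMEM234) and EIF3L (ANKRD54).

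**Figure D1:**
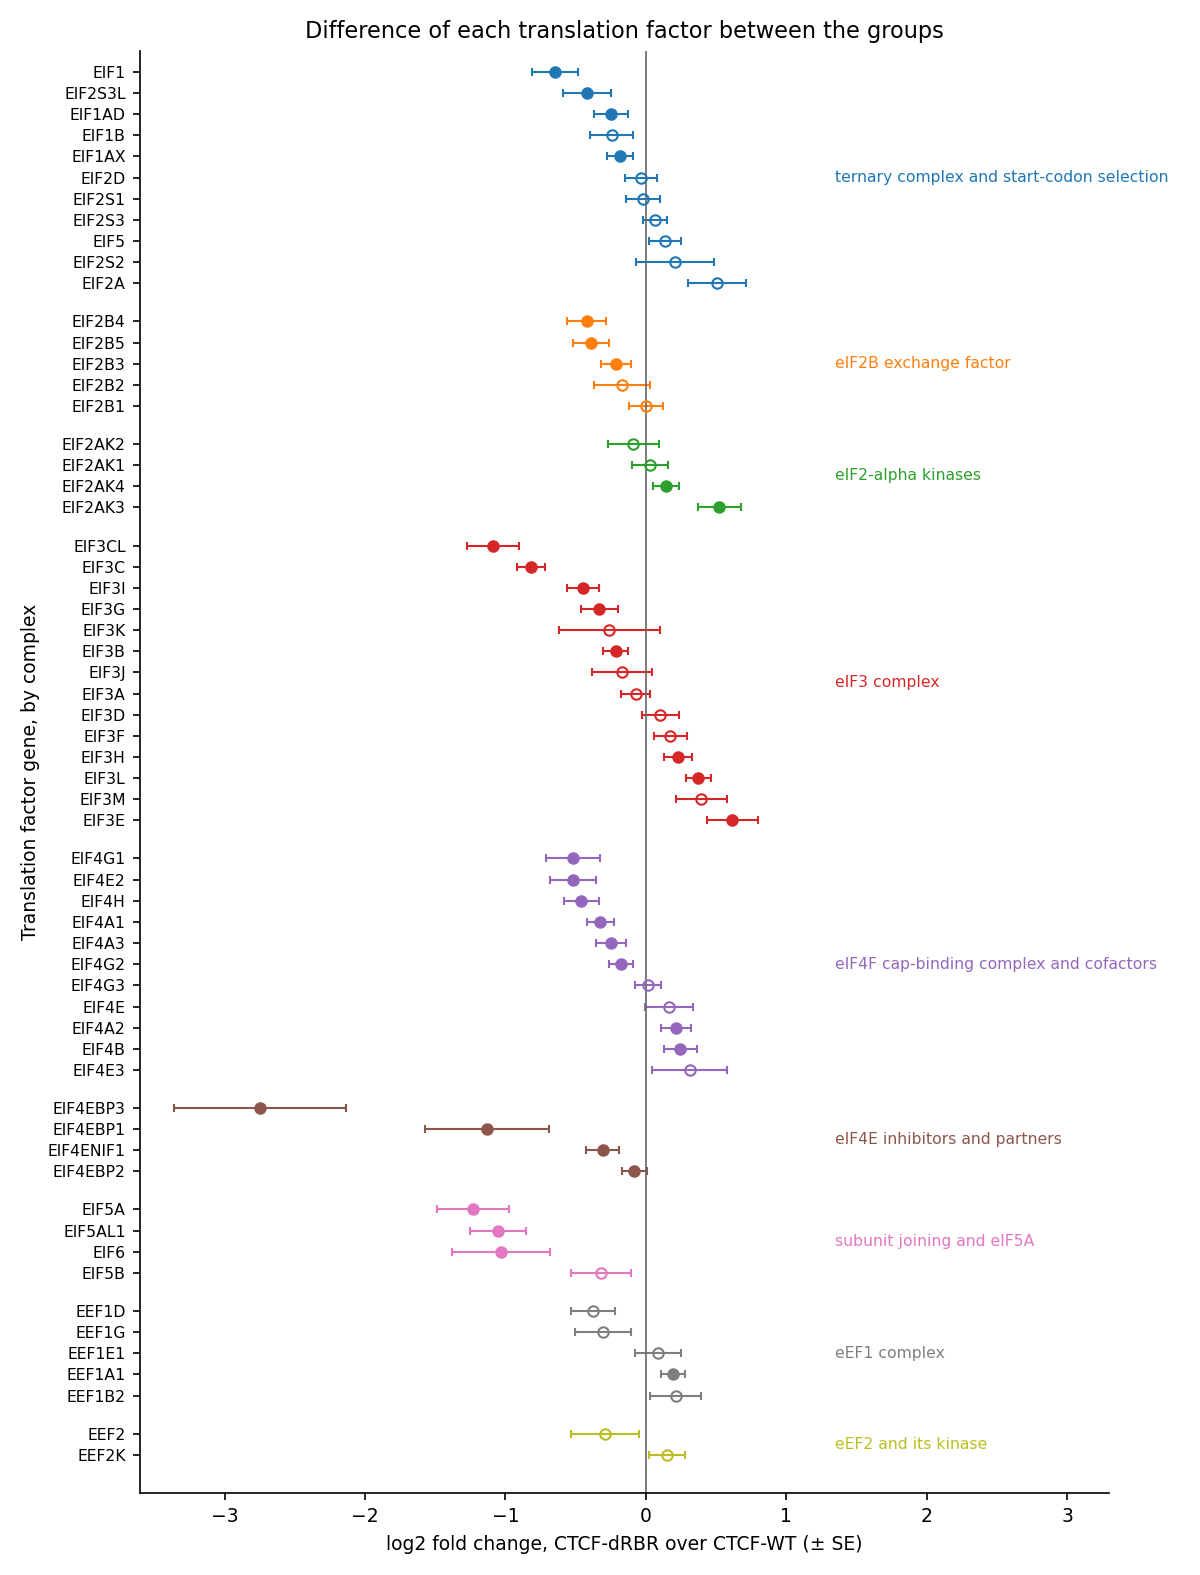
Log2 fold change of each translation factor (x axis, CTCF-dRBR over CTCF-WT, with its standard error) for the members that entered the fit, grouped by complex on the y axis; EEF1E1-BLOC1S5 is left out. Filled circles mark genes whose 3 CTCF-WT and 3 CTCF-dRBR libraries do not overlap in CPM, and open circles mark genes that overlap; EIF4EBP3 lies farthest from 0, and all 4 eIF4E inhibitors and partners are filled on the lower side.

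EIF3C encodes a core subunit of eIF3, and EIF3CL is a second copy of the gene on the opposite strand of chromosome 16. In GRCh37, EIF3C (ENSG00000184110.10) lies at chr16:28699879-28747048 on the plus strand and EIF3CL (ENSG00000205609.8) at chr16:28390900-28415162 on the minus strand. Their coding sequences of 2742 and 2745 bases had 0 mismatches and differed by 3 bases, 1 GAG codon in exon 9. The stretch around it is shown because it holds the one coding difference by which a read could be placed. Capitals mark the extra codon, which could equally be any of the GAG codons of the run.
EIF3C, chr16:28734550-28734606, plus strand, coding bases 842 to 898: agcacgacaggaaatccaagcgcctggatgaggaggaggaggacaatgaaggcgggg
EIF3CL, chr16:28403339-28403398, minus strand, coding bases 842 to 901: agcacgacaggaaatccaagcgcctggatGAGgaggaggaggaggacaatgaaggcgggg

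Of all windows of 100 bases in the EIF3C transcript, 97.0% also occur in EIF3CL, so the split of reads between both genes rests on the estimate by RSEM. EIF3C read 109.8, 99.2 and 97.3 CPM in CTCF-WT against 58.8, 54.4 and 60.8 in CTCF-dRBR, each in the order of replicates 1, 2 and 3, as throughout. EIF3CL read 58.2, 59.3 and 47.5 CPM in CTCF-WT against 19.5, 26.7 and 30.5 CPM in CTCF-dRBR. Every CTCF-dRBR library lay below every CTCF-WT library for both genes, with log2 fold changes of −0.82 (SE 0.10) and −1.09 (SE 0.19). Summed over both copies, the level was 157 ± 11.7 CPM (SD, n = 3) in CTCF-WT against 83.6 ± 6.81 CPM in CTCF-dRBR (log2 fold change −0.91, SE 0.11), which does not depend on how RSEM split the reads between them. EIF3C held 62.6% to 67.2% of the summed counts in the CTCF-WT libraries and 66.6% to 75.1% in the CTCF-dRBR libraries. Without CTCF-dRBR replicate 1 the log2 fold changes were −0.83 for EIF3C and −0.94 for EIF3CL, and with the trend over GC content removed they were −0.72 and −0.77. In TPM they were −0.65 and −0.98 over protein-coding genes, and −0.18 and −0.51 as deposited, where the median of all genes was 0.40.

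**Figure D2:**
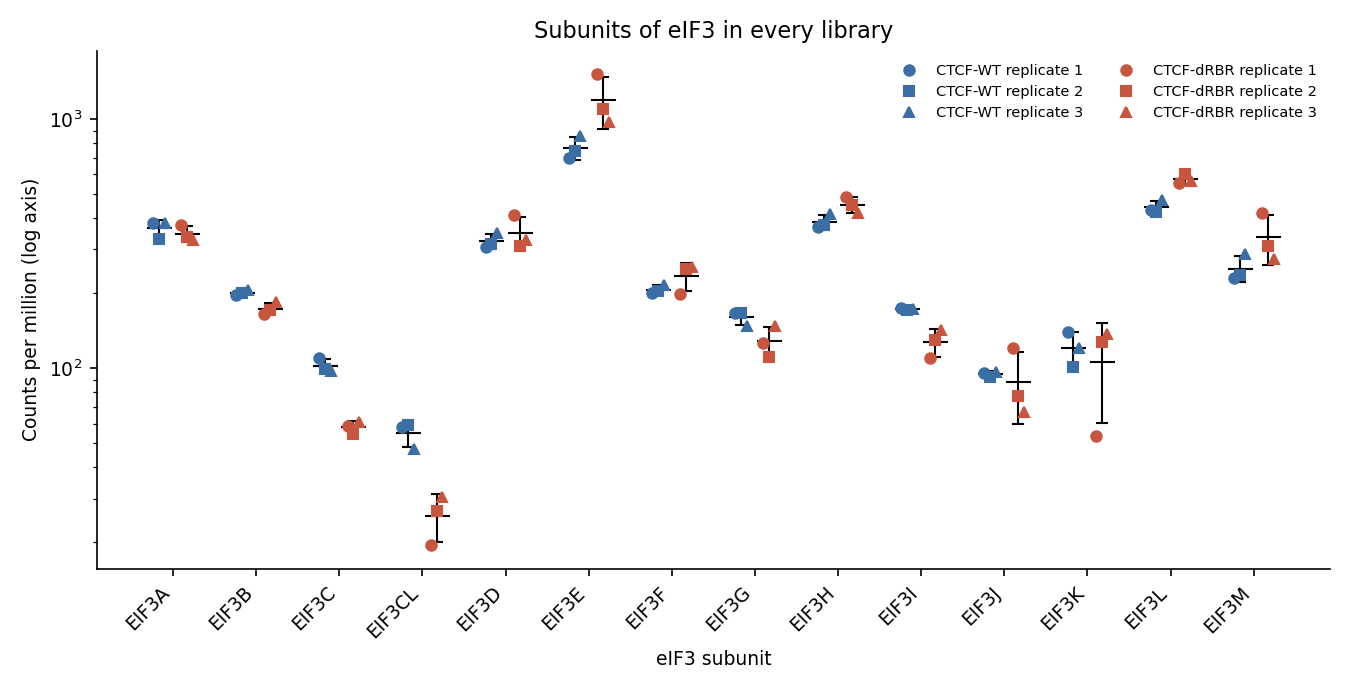
CPM of each eIF3 subunit (x axis) on a log axis, with 1 symbol per library (circle, square and triangle for replicates 1, 2 and 3), blue for CTCF-WT and red for CTCF-dRBR, and the mean ± SD of each group as a bar. EIF3C and EIF3CL lie lower in all 3 CTCF-dRBR libraries, whereas EIF3E and EIF3L lie higher in all 3.

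The other 12 subunits of eIF3 lay on both sides of 0. For 6 the log2 fold change was below 0 and for the other six above 0, with a median of 0.02, and 3 were lower and 3 higher without overlap between the groups. The subunits eIF3b, eIF3g and eIF3i form a module near the mRNA entry channel, and their genes were the 3 that were lower. EIF3I read 175, 171 and 173 CPM in CTCF-WT against 109.6, 130.2 and 142 CPM in CTCF-dRBR (log2 fold change −0.45, SE 0.12, adjusted p = 0.135). EIF3G read 167, 167 and 148.2 CPM and then 126, 111 and 148.2 CPM, with CTCF-dRBR replicate 3 just under the lowest CTCF-WT library and a log2 fold change of −0.33 (SE 0.13, adjusted p = 0.187). For EIF3B the values were 197, 199.9 and 206 CPM and then 165, 171 and 184 CPM (log2 fold change −0.22, SE 0.09, adjusted p = 0.189). Of these 3 genes EIF3I kept its direction once the GC trend was removed (−0.33), whereas EIF3B (0.22) and EIF3G (0.33) turned to the other side.

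Subunits that share the PCI or MPN domain build the core of eIF3, to which eIF3c belongs. Of these, EIF3E, EIF3F, EIF3H, EIF3L and EIF3M had a log2 fold change above 0. EIF3E had the highest counts of all eIF3 subunits and read 698, 745 and 859.9 CPM in CTCF-WT against 1515, 1095 and 973 CPM in CTCF-dRBR (log2 fold change 0.62, SE 0.18, adjusted p = 0.148). EIF3L read 431, 424 and 475 CPM and then 553, 603 and 567 CPM (log2 fold change 0.37, SE 0.09, adjusted p = 0.126). In both genes every CTCF-dRBR library lay above every CTCF-WT library. With the GC trend removed EIF3E was at 0.26 and EIF3L at 0.54. Without CTCF-dRBR replicate 1 they were at 0.43 and 0.40. EIF3H read 368.5, 375 and 417 CPM and then 485, 454 and 421 CPM (log2 fold change 0.23, SE 0.10), which does not overlap either, although its difference was −0.01 with the GC trend removed. EIF3M overlapped, with 231, 237 and 287 CPM and then 421, 309 and 275 CPM (log2 fold change 0.39, SE 0.18), and was at 0.08 with the GC trend removed.

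The remaining core subunits overlapped between the groups. EIF3F read 201, 204 and 216 CPM in CTCF-WT against 199, 249.7 and 255 CPM in CTCF-dRBR (log2 fold change 0.18). EIF3K read 140.5, 101 and 120.2 CPM and then 53.5, 127 and 137 CPM, so that its log2 fold change of −0.26 rested on CTCF-dRBR replicate 1 and was 0.14 without it. EIF3A, the scaffold of the complex, read 383, 329 and 382 CPM and then 375, 337 and 327 CPM (log2 fold change −0.07). Outside the core, EIF3D, a subunit that can itself bind the cap, read 306, 316 and 349 CPM and then 414, 309 and 329 CPM (log2 fold change 0.10). The loosely bound EIF3J read 95.9, 92.1 and 96.8 CPM and then 121, 77.2 and 66.8 CPM (log2 fold change −0.17). In both genes CTCF-dRBR replicate 1 was the highest of all 6 libraries, and without it the log2 fold changes were −0.02 for EIF3D and −0.41 for EIF3J.

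Per length, the subunits of eIF3 were far from equal in level. Each level is given here as a share of the summed level of all eIF3 subunits, from TPM. Any scaling of the library cancels in such a share, but a trend over GC content does not. EIF3E took 21.5% ± 1.68 (SD, n = 3) of that sum in CTCF-WT against 29.5% ± 5.02 in CTCF-dRBR, and EIF3L took 14.5% ± 0.532 and 16.2% ± 0.972. EIF3C and EIF3CL together took 3.38% ± 0.234 and 1.62% ± 0.287. EIF3I took 5.54% ± 0.177 in CTCF-WT against 3.45% ± 0.900 in CTCF-dRBR, and EIF3B took 3.92% ± 0.202 and 2.75% ± 0.340. The shares did not overlap for EIF3E and EIF3L, which were higher in CTCF-dRBR, or for EIF3A, EIF3B, EIF3D, EIF3G and EIF3I, which were lower, besides EIF3C and EIF3CL. Because shares sum to a fixed total, a higher share of EIF3E goes with lower shares of others, and EIF3D went from 8.68% to 7.41% with a log2 fold change of 0.10 in CPM. The GC content of the exons was 36.7% for EIF3E and 50.95% for EIF3L. For the subunits with lower shares, EIF3C and EIF3CL aside, it ran from 42.7% (EIF3A) to 59.7% (EIF3G). The shares hold EIF3C in their sum and were not tested, nor was the part of base composition in them.

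**Figure D3:**
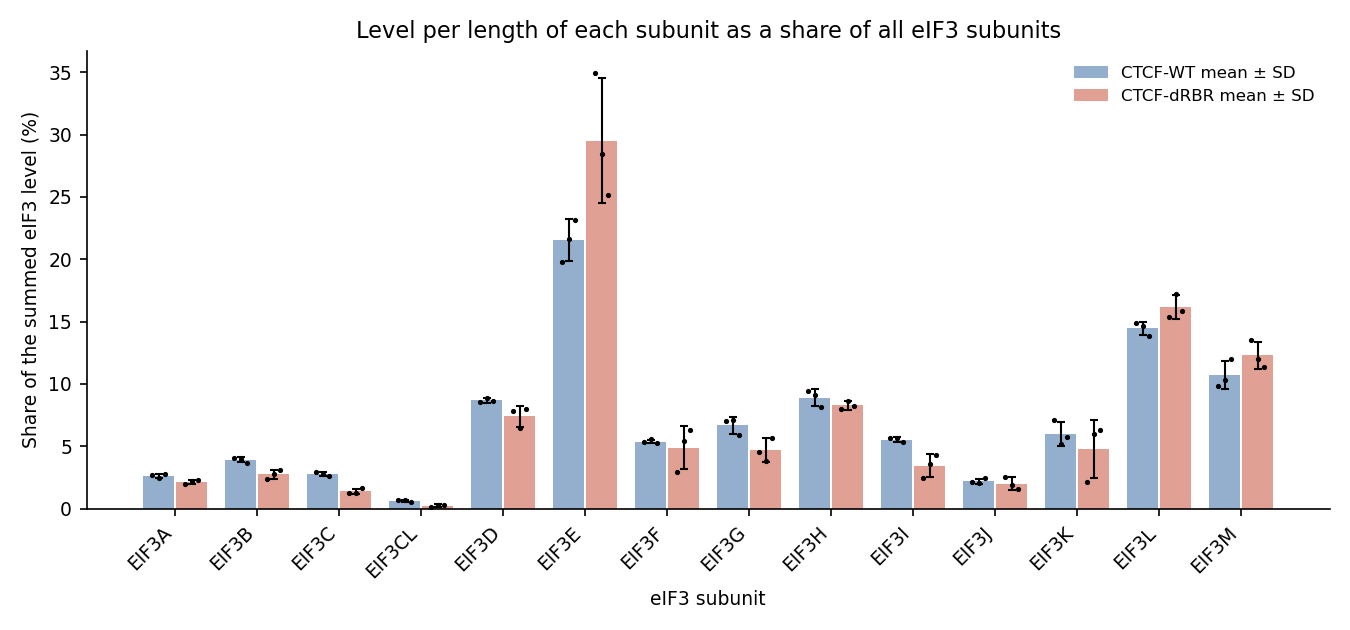
Level per length (TPM) of each eIF3 subunit (x axis) as a percent of the sum over all eIF3 subunits in the same library (y axis); bars are means, error bars SD and dots the 3 libraries of each group. EIF3E takes the largest share in both groups, 21.5% in CTCF-WT against 29.5% in CTCF-dRBR, while EIF3C and EIF3CL take little in either.

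Genes of the ternary complex and of start-codon selection ran from −0.65 to 0.51 in log2 fold change, with a median of −0.03 over 11 members (−0.20 with the GC trend removed), 4 of them lower without overlap and 0 higher. EIF1, which guards against initiation at wrong codons, read 96.2, 79.0 and 65.0 CPM in CTCF-WT against 46.2, 51.4 and 53.1 CPM in CTCF-dRBR (log2 fold change −0.65, SE 0.16, adjusted p = 0.132). Its paralog EIF1B read 19.4, 16.6 and 15.5 CPM and then 16.3, 14.4 and 12.99 CPM, which overlap (log2 fold change −0.24). The difference of EIF1 was of similar size with the GC trend removed (−0.58) and without CTCF-dRBR replicate 1 (−0.60). EIF1AX, the gene of eIF1A, was at −0.18 and its relative EIF1AD at −0.25, both without overlap.

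The 3 subunits of eIF2 overlapped between the groups in CPM. EIF2S3, the gamma subunit and the most highly counted gene of this set, read 655, 683 and 737 CPM in CTCF-WT against 749, 719 and 703 CPM in CTCF-dRBR (log2 fold change 0.07, SE 0.09). EIF2S1, the alpha subunit that the stress kinases phosphorylate, was at −0.02 and EIF2S2, the beta subunit, at 0.21. Without CTCF-dRBR replicate 1 EIF2S2 was at −0.12, and with the GC trend removed EIF2S1 was at −0.36 (limma-voom adjusted p = 0.0416). EIF2S3L, listed as EIF2S3B in the newer annotation, is a copy of EIF2S3 on chromosome 12, and its coding sequence differs at 25 of 1419 bases. It read 35.8, 33.4 and 33.2 CPM and then 24.7, 21.0 and 31.9 CPM (log2 fold change −0.42, SE 0.17, adjusted p = 0.193), lower than every CTCF-WT library, while EIF2S3 overlapped. EIF2A, an alternative carrier of initiator tRNA, read 142, 149 and 178 CPM and then 299.6, 208 and 177 CPM (log2 fold change 0.51, SE 0.21), with CTCF-dRBR replicate 3 inside the CTCF-WT range. Removing the GC trend brought it to 0.16, and leaving out CTCF-dRBR replicate 1 to 0.30. EIF2D was at −0.03 and EIF5, the GTPase activator of eIF2, at 0.14.

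In the eIF2B exchange factor, 3 of 5 subunits were lower without overlap. EIF2B5, the catalytic epsilon subunit, read 116, 119 and 116 CPM in CTCF-WT against 74.3, 93.3 and 101 CPM in CTCF-dRBR (log2 fold change −0.39, SE 0.13, adjusted p = 0.158). EIF2B4, the delta subunit, read 29.7, 25.5 and 23.6 CPM and then 17.5, 19.9 and 20.8 CPM (log2 fold change −0.42, SE 0.14, adjusted p = 0.161). The gamma subunit EIF2B3 was at −0.21, the beta subunit EIF2B2 at −0.17 and the alpha subunit EIF2B1 at 0.00. With the GC trend removed EIF2B4 and EIF2B5 stayed below 0, at −0.32 and −0.30.

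Of the 4 kinases of eIF2-alpha, EIF2AK3 and EIF2AK4 were higher without overlap. EIF2AK3, which encodes the endoplasmic reticulum stress sensor PERK, read 55.5, 57.6 and 63.0 CPM in CTCF-WT against 105, 79.3 and 73.5 CPM in CTCF-dRBR (log2 fold change 0.52, SE 0.15, adjusted p = 0.148). EIF2AK4, the amino acid sensor GCN2, read 61.3, 61.7 and 65.0 CPM and then 65.3, 70.9 and 71.2 CPM (log2 fold change 0.14, SE 0.09). EIF2AK3 separated the groups with room between them, whereas EIF2AK4 did so by less than 1 CPM. With the GC trend removed EIF2AK3 was at 0.26 and EIF2AK4 at −0.02. Without CTCF-dRBR replicate 1 EIF2AK3 was at 0.38 and EIF2AK4 at 0.18. EIF2AK2, the double-stranded RNA sensor PKR, read 118, 116 and 115 CPM and then 148, 97.9 and 92.6 CPM (log2 fold change −0.09). EIF2AK1, the haem-regulated kinase, read 44.6, 36.8 and 41.9 CPM and then 36.7, 44.04 and 43.9 CPM (log2 fold change 0.03). Both overlapped, and EIF2AK2 was above the CTCF-WT range in CTCF-dRBR replicate 1 and below it in the other 2. The ratio of EIF2AK3 to EIF2AK2 per length was 1.09 ± 0.141 (SD, n = 3) in CTCF-WT against 1.87 ± 0.247 in CTCF-dRBR, without overlap. Ratios of 6 pairs of factors were computed, with their values known, so none was tested. A trend over GC content does not cancel in such a ratio.

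The cap-binding complex eIF4F brings the small ribosomal subunit to the mRNA. Of its 11 tested members, cofactors included, 6 were lower without overlap and 2 higher, and the median log2 fold change was −0.18. The helicase gene EIF4A1 read 1077, 1053 and 1054 CPM in CTCF-WT against 762, 886 and 899.8 CPM in CTCF-dRBR (log2 fold change −0.33, SE 0.10, adjusted p = 0.148). Its paralog EIF4A2 read 795, 838 and 901 CPM and then 1083, 963 and 902 CPM (log2 fold change 0.22, SE 0.11, adjusted p = 0.228). The groups did not overlap for either gene, although for EIF4A2 the nearest libraries differed by under 1 CPM, and its log2 fold change was −0.06 once the GC trend was removed and 0.14 without CTCF-dRBR replicate 1. The ratio of EIF4A2 to EIF4A1 per length was 0.486, 0.541 and 0.4997 in CTCF-WT against 0.748, 0.616 and 0.581 in CTCF-dRBR, higher in 3 of 3 libraries. The GC content of the exons was 40.4% for EIF4A2 and 51.5% for EIF4A1. With the GC trend removed EIF4A1 was at −0.13, beside −0.06 for EIF4A2. The direction of EIF4A1 itself depended on the scale, since in TPM over protein-coding genes its log2 difference was 0.01. EIF4A3, the helicase of the exon junction complex, read 109, 115 and 119 CPM and then 85.1, 100.5 and 103 CPM (log2 fold change −0.25). Every 100-base window of EIF4A1 also occurs in read-through genes annotated across it, of which the one that shares most read 18.4 CPM on average.

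The scaffold gene EIF4G1 read 350.3, 329 and 340.2 CPM in CTCF-WT against 176, 246 and 302 CPM in CTCF-dRBR (log2 fold change −0.52, SE 0.19, adjusted p = 0.179). EIF4G2, which encodes the cap-independent scaffold DAP5, read 958, 1017 and 1017 CPM and then 918, 879.7 and 849.6 CPM (log2 fold change −0.18, SE 0.08). EIF4G3 read 122, 123 and 136 CPM and then 136, 124 and 127 CPM (log2 fold change 0.02) and overlapped. The first 2 scaffolds were lower without overlap, but with the GC trend removed EIF4G1 was at 0.00 and EIF4G2 at −0.41. The ratio of EIF4G2 to EIF4G1 per length overlapped, with 2.73, 2.97 and 2.75 in CTCF-WT against 6.57, 3.58 and 2.54 in CTCF-dRBR. The helicase cofactor EIF4H read 655, 655 and 582 CPM and then 394, 482 and 506 CPM (log2 fold change −0.46, SE 0.12, adjusted p = 0.139), and was at −0.39 with the GC trend removed. EIF4B, the other cofactor and the most highly counted member of this set, read 1108, 1158 and 1195 CPM and then 1590.1, 1257 and 1281 CPM (log2 fold change 0.25, SE 0.12). The 2 cofactors of the same helicase lay on opposite sides of 0, each without overlap, but EIF4B was at 0.13 without CTCF-dRBR replicate 1, at 0.12 with the GC trend removed and at 0.06 with both.

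Of the cap-binding proteins, EIF4E2, a cap-binding protein linked to translational repression, was lower in CTCF-dRBR, with 77.1, 67.5 and 62.5 CPM in CTCF-WT against 38.7, 47.9 and 57.1 CPM in CTCF-dRBR (log2 fold change −0.52, SE 0.16, adjusted p = 0.154). EIF4E itself read 132, 133 and 147 CPM and then 199, 141 and 132 CPM (log2 fold change 0.17) and overlapped. EIF4E3 stayed between 0.877 and 1.74 CPM in all 6 libraries. The ratio of EIF4E to EIF4E2 per length was 1.504 ± 0.554 (SD, n = 3) in CTCF-WT against 2.77 ± 0.484 in CTCF-dRBR, without overlap.

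All 4 genes of eIF4E inhibitors and partners were lower without overlap, beside 17.5% of all genes tested. Their median log2 fold change was −0.72, and −0.32 with the GC trend removed. EIF4EBP1, the mTOR-regulated inhibitor of eIF4E, read 114, 111 and 104 CPM in CTCF-WT against 21.3, 57.9 and 86.0 CPM in CTCF-dRBR (log2 fold change −1.13, SE 0.44, adjusted p = 0.186). EIF4EBP3 read 7.68, 7.16 and 2.57 CPM and then 0.478, 0.683 and 1.19 CPM (log2 fold change −2.75, SE 0.61, adjusted p = 0.115). The difference of EIF4EBP1 was uneven among the CTCF-dRBR libraries, and it was −0.64 without replicate 1 and −0.42 with the GC trend removed. EIF4EBP3 was at −2.51 and −2.29 in those fits, although 69.2% of its windows are shared with the read-through gene ANKHD1-EIF4EBP3 (mean 25.5 CPM), from which RSEM had to divide the reads. EIF4EBP2 read 139, 134 and 134 CPM and then 119, 132 and 133 CPM (log2 fold change −0.08, SE 0.09), with its nearest libraries at 133.8 and 133.2 CPM. EIF4ENIF1, the nuclear importer of eIF4E, read 22.2, 19.6 and 20.5 CPM and then 16.0, 17.5 and 16.6 CPM (log2 fold change −0.31, SE 0.12, adjusted p = 0.184). In TPM over protein-coding genes EIF4EBP2 (0.0071) and EIF4ENIF1 (0.24) lay above 0 and overlapped, where the median of all genes was 0.09. EIF4EBP1 and EIF4EBP3 stayed lower without overlap there. The ratio of EIF4EBP2 to EIF4EBP1 per length was 0.111, 0.113 and 0.1201 in CTCF-WT against 0.472, 0.215 and 0.148 in CTCF-dRBR, higher in 3 of 3 libraries. The GC content of the exons was 44.7% for EIF4EBP2 and 61.7% for EIF4EBP1. With the GC trend removed EIF4EBP2 was at −0.22, beside −0.42 for EIF4EBP1.

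**Figure D4:**
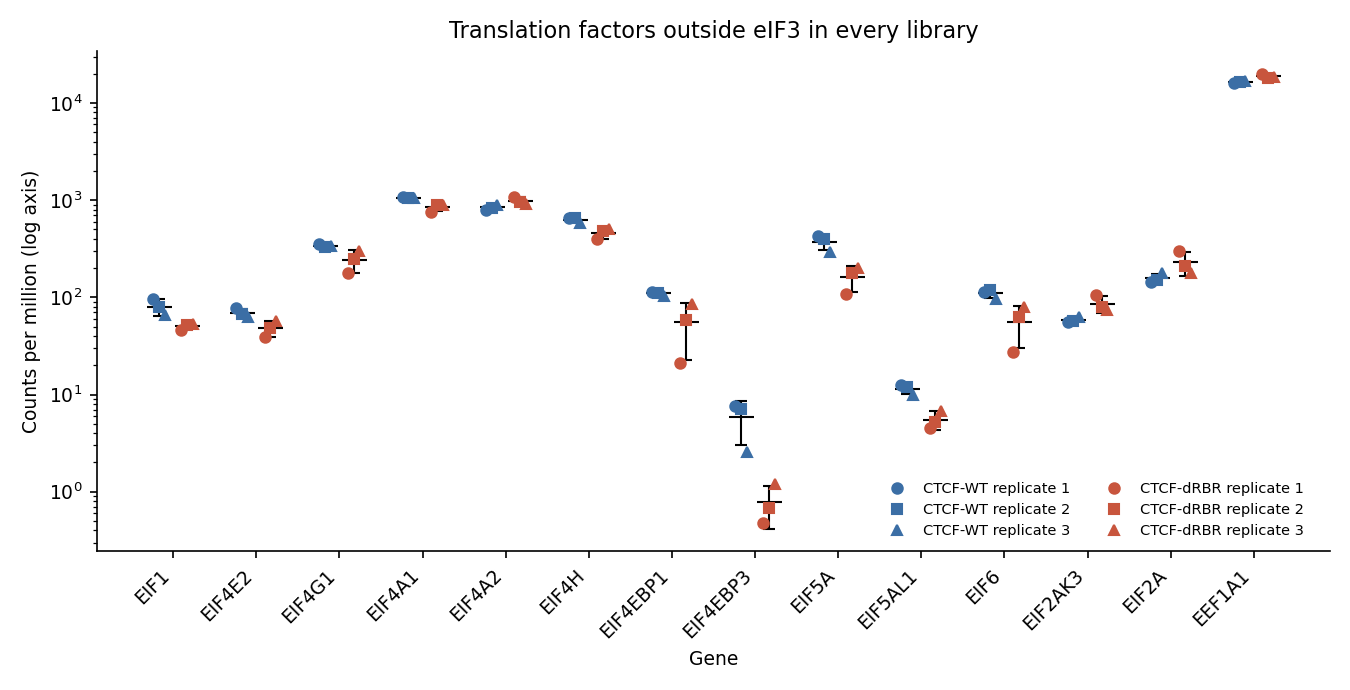
CPM of 14 translation factors outside eIF3 (x axis) on a log axis, with 1 symbol per library (circle, square and triangle for replicates 1, 2 and 3), blue for CTCF-WT and red for CTCF-dRBR, and the mean ± SD of each group as a bar. EIF5A and EIF5AL1 lie lower in all 3 CTCF-dRBR libraries, EIF4EBP1 and EIF6 are lowest in CTCF-dRBR replicate 1, and EEF1A1 lies slightly higher.

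EIF5A, which helps the ribosome through proline-rich stretches and carries hypusine, had the largest difference among the well-counted members. It read 426, 399 and 295 CPM in CTCF-WT against 108, 176 and 200.3 CPM in CTCF-dRBR (log2 fold change −1.23, SE 0.26, adjusted p = 0.1098). EIF5AL1, an intronless copy on chromosome 10, read 12.7, 11.9 and 9.83 CPM and then 4.52, 5.20 and 6.82 CPM (log2 fold change −1.05, SE 0.20, adjusted p = 0.1015). Every CTCF-dRBR library lay below every CTCF-WT library in both genes. Their coding sequences of 465 bases differ at 5 positions. The stretch that holds 3 of them is shown because reads there can tell the copies apart, with capitals at the substitutions C106T, C123G and A133G (EIF5A base first, counted from the start codon).
EIF5A, chr17:7213043-7213102, plus strand, coding bases 89 to 148, GRCh37: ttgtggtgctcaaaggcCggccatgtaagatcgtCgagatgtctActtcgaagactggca
EIF5AL1, chr10:81272494-81272553, plus strand, coding bases 89 to 148, GRCh37: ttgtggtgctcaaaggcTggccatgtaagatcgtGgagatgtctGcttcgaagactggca

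Of the EIF5A transcript, 12.5% of the windows of 100 bases occur in EIF5AL1, and EIF5A held 96.0% to 97.1% of the counts summed over both genes in all 6 libraries. RSEM had to divide the reads of the shared windows. Wherever both genes are called, the calls may therefore not be separate. The summed level was 385 ± 70.3 CPM (SD, n = 3) in CTCF-WT against 167 ± 49.1 CPM in CTCF-dRBR (log2 fold change −1.23, SE 0.26, adjusted p = 0.109). EIF6, which keeps the large subunit from joining too early, read 114, 118 and 96.5 CPM and then 27.7, 62.3 and 78.7 CPM (log2 fold change −1.03, SE 0.35, adjusted p = 0.164). As with EIF4EBP1, its lowest value was in CTCF-dRBR replicate 1. The log2 fold change of EIF6 was −0.65 without that library and −0.32 with the GC trend removed. EIF5B, the GTPase of subunit joining, was at −0.32 (SE 0.22) and overlapped.

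Elongation factors differed less. EEF1A1, which delivers aminoacyl-tRNA, held more counts than any other member and read 16134, 16538 and 16843 CPM in CTCF-WT against 20066, 17979 and 18507 CPM in CTCF-dRBR (log2 fold change 0.19, SE 0.09, adjusted p = 0.212). Of its windows, 29.5% occur in other genes, chiefly the pseudogene EEF1A1P5, which read 1473 ± 154.9 CPM (SD, n = 3) in CTCF-WT against 1703 ± 86.9 CPM in CTCF-dRBR. The exchange factor subunits of eEF1 lay on both sides, with EEF1B2 at 0.21, EEF1D at −0.38 and EEF1G at −0.30, and all overlapped. EEF1E1, a component of the tRNA synthetase complex, was at 0.09, and EEF1E1-BLOC1S5 was listed at 0 in 3 of the 6 libraries and at most 1.11 CPM in the others. EEF2, the translocase, read 2664, 2510.4 and 2313 CPM and then 1404, 2162 and 2783 CPM (log2 fold change −0.29, SE 0.24, adjusted p = 0.415), with the lowest and the highest value both in CTCF-dRBR. The ratio of EEF1A1 to EEF2 per length overlapped, at 7.65 ± 1.81 (SD, n = 3) in CTCF-WT against 9.86 ± 0.987 in CTCF-dRBR. Its kinase EEF2K was at 0.15 and overlapped.

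All 64 members summed to 34995 ± 338 CPM (SD, n = 3) in CTCF-WT against 36757 ± 1247 CPM in CTCF-dRBR, without overlap. Without EEF1A1 the sums were 18490.1 ± 93.5 CPM and 17907 ± 481 CPM, which overlapped through CTCF-dRBR replicate 3. Both sums hold EIF3C and EIF3CL and were not tested. Levels per length, in TPM rescaled to sum to the same total over protein-coding genes, spanned from 14240 ± 1751 for EEF1A1 to 0.352 ± 0.0594 for EIF4E3 in CTCF-WT. EEF1A1 was followed by EEF1G (2102), EEF2 (1895) and EEF1B2 (1886), whose ranges over the CTCF-WT libraries overlapped in turn, and then by EIF4A1 (1482), EEF1D (1012) and EIF3E (962). Of the 60 pairs of neighbours in that order, 47 overlapped in CTCF-WT.

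The differences followed base composition, as they did across the whole transcriptome. Over the 59 members the log2 fold change correlated with the GC content of the exons at Spearman's rho = −0.60, and over 13654 genes at −0.68, in the same libraries. All 9 members with a GC content of 55% or more had a log2 fold change below 0 (EEF1D, EEF2, EIF3B, EIF3G, EIF4EBP1, EIF4EBP3, EIF4G1, EIF5A and EIF6), as had 90.9% of all genes in that band. Of the 12 members under 40% GC, 6 were below 0, compared with 11.3% of all genes in that band. After the trend over GC content was removed in each library, 5 of the 9 GC-rich members were below 0, and 9 members passed FDR < 0.05 as lower and 3 as higher (5.27% and 3.97% of all genes). The lower ones were EIF1AX, EIF2S1, EIF3I, EIF3J, EIF4EBP3, EIF4G2, EIF4H, EIF5A and EIF5AL1, and the higher ones were EIF2AK3, EIF3E and EIF3L. The part of base composition in the differences was not tested beyond this fit.

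**Figure D5:**
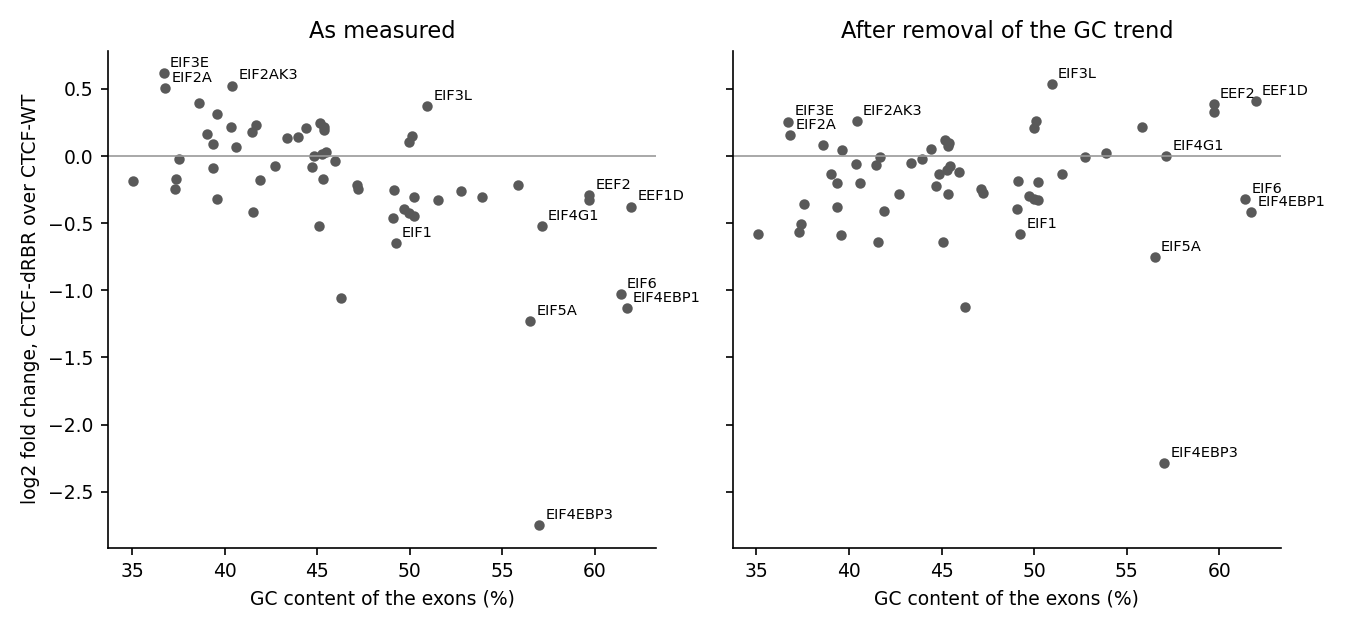
GC content of the exons of each member (x axis, percent) against its log2 fold change, CTCF-dRBR over CTCF-WT (y axis), as measured (left) and with the trend over GC content removed in each library (right); EIF3C, EIF3CL and EEF1E1-BLOC1S5 are left out. At left all 9 members with 55% GC or more lie below 0, and at right EEF2 and EEF1D lie above 0 while EIF5A and EIF4EBP3 stay below.

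Leaving out CTCF-dRBR replicate 1 gave 2 lower members at FDR < 0.05, EIF5A (−0.98, adjusted p = 0.0426) and EIF5AL1 (−0.94, adjusted p = 0.0463), and 0 higher ones, beside 2.37% and 1.52% of all genes. With the GC trend removed as well, 16 members were lower and 5 higher, beside 13.3% and 10.3% of all genes. EIF5A (−0.76, adjusted p = 0.00721), EIF5AL1 (−0.98, adjusted p = 0.015), EIF4EBP3, EIF3I and EIF4H were among the lower ones, and EIF3E (0.24, adjusted p = 0.0275), EIF3L (0.47, adjusted p = 0.0175) and EIF2AK3 (0.24, adjusted p = 0.0229) among the higher ones.

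The other genes of translation were read from lists of cap and poly(A) factors, termination and recycling factors, regulators of eIF2-alpha phosphorylation, modifiers of eIF5A and eEF2, and mitochondrial factors. Of 39 tested, 0 passed FDR < 0.05 in limma-voom, 7 were lower and 2 higher at an unadjusted p under 0.05, beside 12.8% and 12.6% of all genes, and 9 were lower and 5 higher without overlap, beside 17.5% and 20.0%. The genes with the smallest unadjusted p on the lower side were LARP1, TSFM and PABPC4. LARP1, which binds the caps of mRNAs for ribosomal proteins and translation factors, read 238 ± 17.9 CPM (SD, n = 3) in CTCF-WT against 135 ± 14.3 CPM in CTCF-dRBR (log2 fold change −0.81, SE 0.11, adjusted p = 0.0959). TSFM, a mitochondrial elongation factor, was at −0.53 and PABPC4, a poly(A)-binding protein, at −0.34. On the higher side DNAJC3, an inhibitor of the eIF2-alpha kinases, was at 0.34, the mitochondrial release factor MTRF1 at 0.52 and PAIP1, a partner of poly(A)-binding protein, at 0.58. The enzymes that make hypusine on eIF5A were both below 0, with DHPS at −0.68 and DOHH at −1.83. None of the 8 modification genes was above 0, beside 7112 of 14044 genes tested below 0. DPH6 (−0.02), DPH3 (−0.07) and DPH5 (−0.09) lay near 0, and 2 of the 8 were lower without overlap, beside 17.5% of all genes. DHPS was lower without overlap, whereas DOHH overlapped. With the GC trend removed they were at −0.17 and −0.89, with DPH1 (0.15) and DPH7 (0.05) above 0, and without CTCF-dRBR replicate 1 at −0.42 and −1.13.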

How the data were processed

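The 6 RNA-seq libraries, 3 per group, were grouped by the sample titles. Per the methods, RNA was prepared with the Kapa RNA HyperPrep Kit with RiboErase and sequenced paired-end, whereas the labels state single-end reads. Per the labels, the submitters' processing notes name Trim Galore 0.6.3, STAR 2.7.9a, RSEM 1.3.1, limma and the build hg19; the methods name Gencode v19. The authors deposited RSEM expected counts and TPM per gene. The deposited TPM share their total with small RNAs, and protein-coding genes took 30.2% to 63.2% of it, so TPM were rescaled to protein-coding genes for levels per length.

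Members and lists were chosen with earlier results of these data known. Genes with at least 1 CPM in any library (14044) were scaled by TMM and fitted with limma-voom (R 4.3.3, limma 3.58.1, edgeR 4.0.16), with Benjamini-Hochberg adjustment over all of them; CPM are on the TMM scale and log2 fold changes are CTCF-dRBR over CTCF-WT. Counts were rounded for edgeR and DESeq2 1.42.0. The GC trend was a loess (span 0.5, degree 2) in each library over exon GC content. It was fitted to the deviation of each gene's log2 CPM (prior count 1) from its mean over the libraries. Exon GC content is that of all annotated exons of a gene together, and was available for 97.2% of genes. The 92 spike-in rows held 0 counts. The kinds of fit were run on simulated counts with known changes, with results not given here. Summed copies and the GC removal without CTCF-dRBR replicate 1 were not run there. The fit used for TPM was run on simulated CPM. Of the fits without single libraries, only that without CTCF-dRBR replicate 1 was run. Gene positions and sequences come from the GRCh37 genome and a Gencode annotation lifted to it, in which all 64 members were found. Every tested member is named by complex, with values per library for eIF3 subunits, for the most highly counted member of each other complex, for members without overlap at an unadjusted p under 0.05 and for their paralogs; of the partner genes, the 3 with the smallest unadjusted p in each direction are named. DHPS, DOHH, DPH1, DPH3, DPH5, DPH6 and DPH7 were named after their values were seen. CPM are relative values, and whether the counting used strand is not given in the sources used here beyond the word in the deposited table's name.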

Additional observations from a re-analysis of the deposited data

Results flagged for a closer look

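Rows with EIF or EEF symbols that are not protein-coding lie outside the comparisons above. Of 110 such rows, 23 reached 1 CPM in at least 1 library. Of these, 5 were higher in every CTCF-dRBR library than in every CTCF-WT library, beside 20.0% of all genes tested. In the other direction 2 were lower, beside 17.5%. Neither count is read as a result about these rows. EIF3EP1, a pseudogene of EIF3E, read 3.44, 3.68 and 6.79 CPM in CTCF-WT against 15.2, 9.61 and 7.55 in CTCF-dRBR (log2 fold change 1.1965, SE 0.36, limma-voom adjusted p = 0.149). EIF3J-AS1, a long noncoding RNA antisense to EIF3J, had a log2 fold change of 0.40 (SE 0.12, limma-voom adjusted p = 0.151), from 8.15 ± 0.181 CPM (SD, n = 3) to 10.8 ± 0.378 CPM. The log2 fold changes of the pseudogenes EIF4BP3 and EEF1DP1 were 0.51 and 0.81. EEF1A1P16 was at 2.45, at no more than 1.01 CPM in any library. None passed FDR < 0.05, and reads of a pseudogene can be shared with its parent gene.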

How the results depend on the processing

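The count of members past FDR < 0.05, 0 in limma-voom with TMM, was 0 with edgeR's quasi-likelihood test (19 members at an unadjusted p under 0.05), with DESeq2's size factors, with library size only, without a filter, with 1 CPM required in 3 libraries, with TPM over protein-coding genes and with summed copies. It was 11 with DESeq2 (which called 1619 of 14044 genes), 44 with voomWithQualityWeights (9583 of 14044) and 2 with deposited TPM (833 of 14044). With the GC trend removed it was 12 (1261 of 13654 genes), and 21 with CTCF-dRBR replicate 1 left out as well (3151 of 13360). The last alternative was chosen after the data were seen. Leaving out single libraries gave 0 to 2 members, with both calls when CTCF-dRBR replicate 1 was left out (535 of 13731 genes). The count of members lower without overlap, 23 above, was 15 with library size only and 2 in deposited TPM. It was 25 without a filter, 29 with the GC trend removed and 31 with CTCF-dRBR replicate 1 left out as well. In TPM over protein-coding genes it was 14 (10.6% of all genes), and 12 members were higher without overlap there. In either direction 26 did not overlap on that scale (34.6% of all genes). The count of higher members, 8 above, was 2 in deposited TPM, 6 with library size only and 6 without a filter. It was 7 with the GC trend removed and 11 with CTCF-dRBR replicate 1 left out as well. Without single libraries the counts of lower and of higher members ran from 22 to 27 and from 5 to 13. With fewer libraries a lack of overlap is easier to reach. Shares of all genes for a lack of overlap are given among these alternatives only for TPM over protein-coding genes. The other counts without overlap are therefore not read as results about the members. Among the fits without single libraries, the lowest count of higher members came without CTCF-WT replicate 1 and the highest without CTCF-WT replicate 3.

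The median log2 fold change of the members, −0.17, was −0.11 with edgeR, −0.10 with DESeq2, −0.093 with library size only, −0.26 without a filter, −0.0274 with voomWithQualityWeights and −0.10 with the GC trend removed and CTCF-dRBR replicate 1 left out, and ran from −0.16 to −0.10 without single libraries. It was 0.0071 and 0.0070 in TPM over protein-coding genes with pseudocounts of 1 and 0.1, where the median of all genes was 0.09 and 0.10, and 0.41 in deposited TPM, where that of all genes was 0.40.

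Directions of single members turned as follows, out of 59 compared. In deposited TPM, beside that shift of 0.40, 28 turned, with log2 fold changes of 0.31 for EEF1D, 0.28 for EEF1G, 0.52 for EEF2, 0.052 for EIF1AD, 0.40 for EIF1AX, 0.29 for EIF1B, 0.65 for EIF2AK2, 0.33 for EIF2B2, 0.35 for EIF2B3, 0.15 for EIF2B4, 0.30 for EIF2B5, 0.96 for EIF2D, 0.21 for EIF2S1, 0.10 for EIF2S3L, 0.53 for EIF3A, 0.31 for EIF3B, 0.30 for EIF3G, 0.11 for EIF3I, 0.64 for EIF3J, 0.36 for EIF3K, 0.48 for EIF4A1, 0.25 for EIF4A3, 0.44 for EIF4EBP2, 0.62 for EIF4ENIF1, 0.081 for EIF4G1, 0.55 for EIF4G2, 0.28 for EIF4H and 0.27 for EIF5B. In TPM over protein-coding genes 12 turned, which with pseudocounts of 1 and 0.1 were 0.053 and 0.053 for EEF2, −0.015 and −0.017 for EIF2AK1, 0.23 and 0.23 for EIF2AK2, −0.0056 and −0.0059 for EIF2B1, 0.53 and 0.53 for EIF2D, 0.070 and 0.070 for EIF3A, 0.19 and 0.19 for EIF3J, 0.013 and 0.013 for EIF4A1, 0.0071 and 0.007 for EIF4EBP2, 0.24 and 0.25 for EIF4ENIF1, 0.090 and 0.090 for EIF4G2, and −0.062 and −0.064 for EIF4G3. With the GC trend removed 16 turned, at 0.41 for EEF1D, −0.20 for EEF1E1, 0.020 for EEF1G, 0.38 for EEF2, −0.076 for EIF2AK1, −0.020 for EIF2AK4, −0.13 for EIF2B1, −0.20 for EIF2S3, 0.22 for EIF3B, −0.064 for EIF3F, 0.33 for EIF3G, −0.0082 for EIF3H, −0.058 for EIF4A2, −0.14 for EIF4E, −0.10 for EIF4G3 and −0.055 for EIF5. With CTCF-dRBR replicate 1 left out as well 13 turned, at −0.064 for EEF1B2, 0.051 for EEF1D, −0.23 for EEF1E1, 0.043 for EEF1G, 0.28 for EEF2, −0.20 for EIF2S2, −0.10 for EIF2S3, 0.0024 for EIF3B, 0.25 for EIF3K, −0.17 for EIF4E, −0.036 for EIF4E3, −0.094 for EIF4G3 and −0.055 for EIF5. Without a filter the turned values were −0.055 for EIF2AK1, −0.078 for EIF2B1, −0.018 for EIF2S3 and −0.068 for EIF4G3, with library size only 0.040 for EIF2D, 0.053 for EIF2S1 and 0.0005 for EIF3A, with voomWithQualityWeights 0.037 for EIF2B2, 0.024 for EIF2D, 0.0019 for EIF2S1, −0.023 for EIF3D, 0.23 for EIF3K and −0.0016 for EIF4G3 and with edgeR −0.002 for EIF2B1. Over the fits without single libraries the log2 fold changes ran from −0.077 to 0.23 for EEF1E1, from −0.29 to 0.038 for EIF2AK2, from −0.12 to 0.067 for EIF2S1, from −0.12 to 0.42 for EIF2S2, from −0.41 to 0.0081 for EIF3J and from −0.015 to 0.28 for EIF4E (lowest without CTCF-dRBR replicate 1, highest without CTCF-dRBR replicate 3). They ran from −0.047 to 0.10 for EIF2AK1 (lowest without CTCF-WT replicate 2, highest without CTCF-dRBR replicate 1). They ran from −0.070 to 0.076 for EIF2B1 (lowest without CTCF-dRBR replicate 2, highest without CTCF-dRBR replicate 1). They ran from −0.29 to 0.021 for EIF2B2, from −0.089 to 0.046 for EIF2D and from −0.50 to 0.14 for EIF3K (lowest without CTCF-dRBR replicate 3, highest without CTCF-dRBR replicate 1). They ran from −0.025 to 0.19 for EIF3D (lowest without CTCF-dRBR replicate 1, highest without CTCF-dRBR replicate 2). They ran from −0.026 to 0.066 for EIF4G3 (lowest without CTCF-dRBR replicate 1, highest without CTCF-WT replicate 3). The cause was not tested. EIF1, EIF4E2, EIF4EBP1, EIF4EBP3, EIF5A, EIF5AL1 and EIF6 stayed below 0, and EEF1A1, EEF2K, EIF2A, EIF2AK3, EIF3E, EIF3L, EIF3M and EIF4B above 0, in all 20 alternatives (19 for EIF5AL1).

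With the replicate number as a replicate block, 0 members passed, the median was −0.15 and EIF2B1 turned to −0.0028. The numbers share no stated culture or day, and same-numbered libraries deviated with correlations of −0.34, 0.10 and −0.47, so they were not treated as paired.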
